A study of Mus musculus with 12 samples.

Results

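The genes described here carry the type I interferon signal from the secreted ligand to the nucleus. They are the ligand Ifnb1, the receptor chains Ifnar1 and Ifnar2, the transcription factors Stat2, Irf9, Irf7, Irf1 and Irf3, and the inhibitor Socs1. These 9 genes were chosen by name, with no measured value in the rule, but earlier results of these data were known at that time. Their rows were taken from a table of 24100 mouse genes and 12 RNA-seq libraries. The cells were mouse embryonic fibroblasts (MEFs) of 2 genotypes, Rtf2+/+ (WT) and Rtf2-/lox, and both genotypes received a Cre retrovirus 72 hrs before collection, so the controls carry Cre too. In Rtf2-/lox cells Cre removes the remaining allele of Rtf2, a gene whose protein acts at replication forks, and these cells are called RTF2-deficient below. The MEFs came as 2 lines from different mothers, with WT and RTF2-deficient littermate cells in each line and 3 libraries for each of the 4 groups. The study describes the cells as immortalized with SV40 and the 3 libraries of a group as technical replicates, so each group is 1 set of cells and the p-values below measure only the spread between its libraries, which may be technical.

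Interferon beta is released by cells that detect foreign or misplaced nucleic acid. It binds a receptor built from IFNAR1 and IFNAR2, the receptor-bound kinases TYK2 and JAK1 then phosphorylate STAT proteins, and a complex with STAT2 and IRF9 binds the interferon-stimulated response element (ISRE) of target genes. IRF3 is made in resting cells and switches on Ifnb1, IRF7 and IRF1 are themselves interferon-induced, and SOCS1 and USP18 dampen the receptor.

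The upstream sequences of 4 genes whose levels separate the libraries below are shown. Irf9, whose levels do so too, is left out here. The 4 sequences are given because such stretches are where ISRE and GAS elements, the STAT dimer's binding motif, would be read. Each is the 250 bases before the transcript start in RefSeq's annotation of GRCm38.p6, written 5′ to 3′ on the gene's strand. Capitals mark matches to the ISRE core (GAAA, any 2 bases, GAAA) or to the GAS motif TTCNNNGAA on either strand. The windows are chr10:128270248-128270497 (plus strand) for Stat2, chr16:10785537-10785786 (minus strand) for Socs1, chr11:53769764-53770013 (plus strand) for Irf1 and chr7:141266425-141266674 (minus strand) for Irf7.
Stat2: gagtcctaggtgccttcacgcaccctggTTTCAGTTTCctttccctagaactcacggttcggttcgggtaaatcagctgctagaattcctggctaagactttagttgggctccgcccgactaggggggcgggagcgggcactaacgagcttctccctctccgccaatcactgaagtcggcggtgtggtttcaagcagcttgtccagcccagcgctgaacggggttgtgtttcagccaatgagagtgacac
Socs1: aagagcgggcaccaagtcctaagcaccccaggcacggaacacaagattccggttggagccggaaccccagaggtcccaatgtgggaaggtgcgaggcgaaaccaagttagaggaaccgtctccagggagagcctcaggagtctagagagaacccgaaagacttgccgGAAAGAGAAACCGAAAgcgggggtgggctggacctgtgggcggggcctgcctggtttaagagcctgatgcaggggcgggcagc
Irf1: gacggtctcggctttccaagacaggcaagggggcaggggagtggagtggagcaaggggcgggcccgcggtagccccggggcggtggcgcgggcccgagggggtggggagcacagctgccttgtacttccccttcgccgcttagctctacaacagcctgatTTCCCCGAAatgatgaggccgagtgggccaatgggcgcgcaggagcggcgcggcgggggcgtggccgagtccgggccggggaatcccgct
Irf7: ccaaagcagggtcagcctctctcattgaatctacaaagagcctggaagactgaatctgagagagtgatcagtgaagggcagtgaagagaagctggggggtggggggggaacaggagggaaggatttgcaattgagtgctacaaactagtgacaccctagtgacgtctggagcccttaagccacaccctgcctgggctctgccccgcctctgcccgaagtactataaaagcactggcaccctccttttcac

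All 9 genes were in the promoter table, with 11 annotated windows running from 250 bases before to 50 bases after the start. The ISRE core was present in 2 of the 9 genes, Stat2, where it began 222 bases before the start on the opposite strand, and Socs1, where overlapping matches began 83 and 77 bases before it. The same letters occurred in 3.44% of the 32851 promoters of the table. The GAS motif was present in Irf1, 90 bases before the start, in Ifnar2, 214 bases before it, and in Ifnar1, 5 bases before it, and in 8.3% of all promoters. The Irf7 window held neither motif, and nor did the Irf9 windows, which are not shown. This says only that these letters are not in those stretches.

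Library totals lay between 39360167 and 44695002 counts, so 3 counts, the limit that a count of 0 allows, stood for 0.0671 to 0.0762 counts per 1000000 counts of the library (CPM, TMM-normalized). Rtf2 itself lay between 44.8 and 57.7 CPM in the 6 WT libraries and between 5.44 and 6.66 CPM in the 6 RTF2-deficient libraries. All 10 fibroblast markers of a fixed list were above 1 CPM, with a summed level of 20161 to 32619 CPM. Of 10 immune markers 2 were above 1 CPM and Cd3e, a T cell marker, was at 0 in every library, with a summed level of 2.77 to 10.6 CPM. The WT cells of line 2 expressed Y-linked genes (Ddx3y at 91.8 to 107 CPM) and the other 3 groups expressed Xist at 103 CPM or more, so the sex of the cells cannot be told apart from genotype in line 2 or from line among WT cells. In bulk RNA a change in the share of cells that express a gene and a change in RNA per cell cannot be told apart.

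Levels of 23 interferon-stimulated target genes of a fixed list, summed, put 2 libraries far from their sisters. The sum was 376, 85.0 and 121 CPM in WT line 1, replicates 1 to 3, and 152, 82.0 and 90.1 CPM in RTF2-deficient line 1. In line 2 it was 7640, 703 and 2070 CPM in WT and 171, 323 and 2840 CPM in RTF2-deficient libraries. WT line 2 replicate 1 and RTF2-deficient line 2 replicate 3 therefore stood apart, on opposite sides of the genotype comparison. Beside most of the larger differences that they moved, values without them are given too. Both were picked by the levels of these targets. Calls gained without them, for the targets or for members that move with them, are therefore no independent test of genotype.

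Same-numbered libraries of different groups deviated together in 3 of the 4 groups. Over all genes tested, the deviations from the group means of same-numbered libraries correlated at 0.43 to 0.62 between the genotypes of line 1, at 0.305 to 0.426 between the WT lines, and at -0.59 to 0.170 between the genotypes of line 2. In RTF2-deficient line 2, replicate 3 correlated at 0.514 to 0.654 with replicate 1 of the other groups, replicate 1 at 0.399 to 0.612 with their replicate 2, and replicate 2 at 0.334 to 0.375 with their replicate 3. Whether the numbers of RTF2-deficient line 2 are in another order than those of the other groups cannot be told from the labels, and the unpaired line 2 values below carry that doubt. Several comparisons within line 1 and between the WT lines are therefore also given from a fit on their 6 libraries with the replicate number as a block, called the paired fit, which was chosen after the data were seen. No such fit was made for line 2, where the labels' numbers did not pair the libraries and no other order was imposed, so the comparisons over both lines are given unpaired. An overlap of the genotypes in line 2 is a statement on unpaired libraries.

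The 9 genes fell into distinct patterns of level. The receptor chains and Irf3 differed by at most 1.45-fold between the lowest and the highest of the 12 libraries, whereas Irf7 differed by 1016-fold, Stat2 by 19.5-fold and Irf9 by 9.06-fold. Within groups of sister libraries the residual standard deviation on the log2 scale was 2.26 for Irf7, 1.10 for Stat2 and 0.95 for Irf9, above that of 99.9%, 98.8% and 98.1% of the 14263 genes tested. The median over all genes was 0.180. Ifnar1, at 0.0486, was above only 1.47% of genes, Ifnar2, at 0.0710, above 6.93%, and Irf3, at 0.0952, above 16.5%. Socs1 (0.503, above 88.2%) and Irf1 (0.452, above 85.2%) lay between these extremes.

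**Figure D1:**
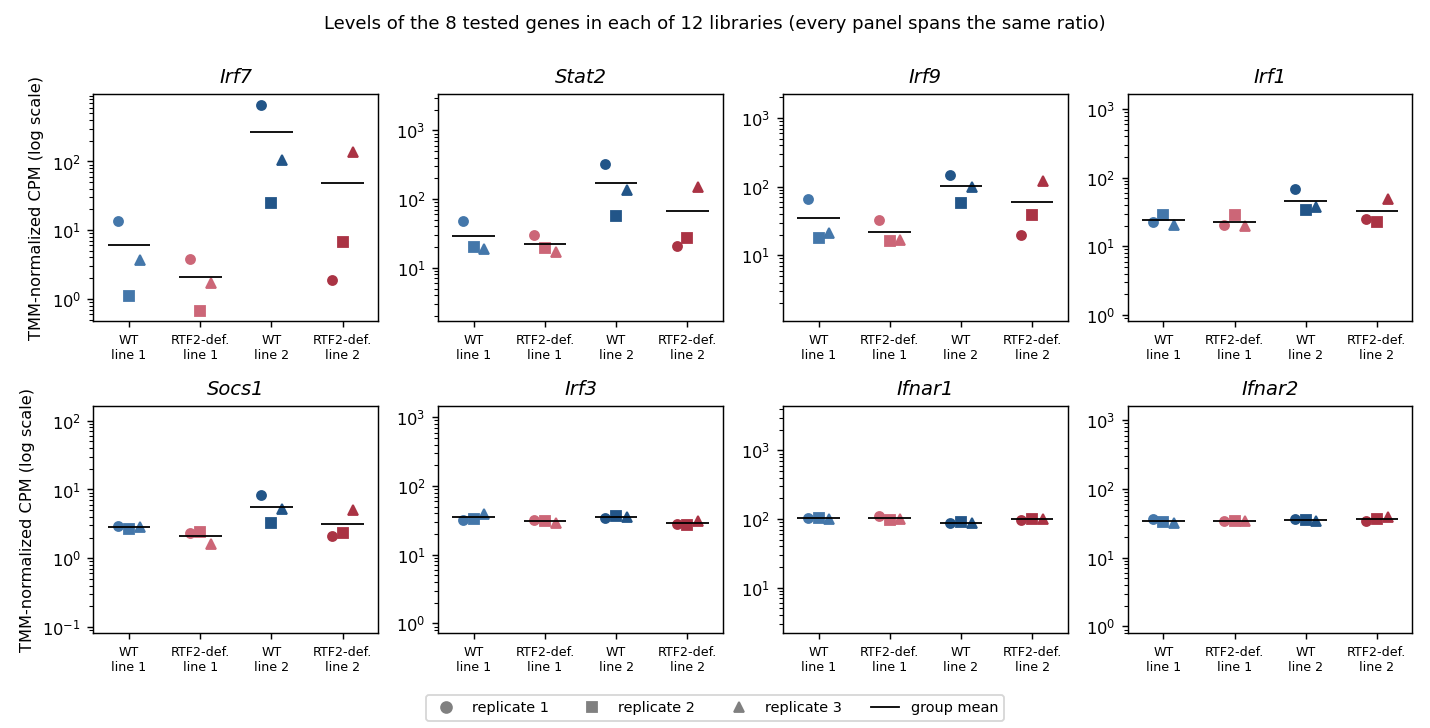
Normalized CPM of each tested gene in the 12 libraries, on log axes that span the same ratio in every panel, with 1 symbol per replicate number and a line at the group mean. Irf7 runs from 0.662 to 672 CPM and separates sister libraries of 1 group by up to 72.8-fold, while Ifnar1 stays between 86.5 and 110 CPM.

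Ifnb1 (Entrez 15977, chr4:88522025-88522774, minus strand, 1 exon) was at or near 0 almost everywhere. It had counts of 0, 0 and 0 in WT line 1, 1, 0 and 0 in RTF2-deficient line 1, 69, 0 and 6 in WT line 2 and 0, 2 and 5 in RTF2-deficient line 2. The 69 counts, or 1.5 CPM, came from WT line 2 replicate 1, the library with the highest interferon-target sum, and RTF2-deficient line 2 replicate 3 held the most Ifnb1 of its genotype. The genotypes overlapped at 0, Ifnb1 did not pass the filter on low counts, and no fold change was fitted. Of 20 other interferon genes on a fixed list 15 were at 0 in every library. Ifnz, also on that list, had 14 to 43 counts in every library (0.341 to 1.03 CPM). Ifna4 reached 13 counts in WT line 2 replicate 1, and the Ifna genes summed to 13, 0 and 3 counts in WT line 2 and 0, 0 and 6 counts in RTF2-deficient line 2.

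Ifnar1 (Entrez 15975, chr16:91485238-91507441, plus strand, 11 exons) encodes the receptor chain that holds TYK2. Its level was 102, 105 and 101 CPM in WT line 1, 110, 98.6 and 101 CPM in RTF2-deficient line 1, 86.5, 89.7 and 88.8 CPM in WT line 2 and 98.5, 102 and 100 CPM in RTF2-deficient line 2. The WT libraries of line 2 were the lowest, below all other libraries, and the other 3 groups overlapped. The genotype difference over both lines was 0.09 on the log2 scale (SE 0.0468, 95% interval -0.01 to 0.20, adjusted p = 0.209 by the quasi-likelihood test of edgeR, adjusted by Benjamini-Hochberg over all genes tested). In line 2 alone it was 0.18 (SE 0.0586, adjusted p = 0.0683 by the same edgeR test), with no overlap between the genotypes, as for 14.0% of all genes in that direction. It passed with DESeq2 (adjusted p = 0.00910, 18.2% of all genes called) and with a filter of 1 CPM in 3 libraries (edgeR adjusted p = 0.0496, 14.1% called). The other 7 of 9 alternatives did not pass, and nor did any of the 12 fits with 1 library left out (edgeR adjusted p from 0.0510 to 0.180).

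Ifnar2 (Entrez 15976, chr16:91372783-91405589, plus strand, 9 exons) encodes the high-affinity chain and lies beside Ifnar1. It was at 36.1, 32.8 and 32.3 CPM in WT line 1, 34.7, 34.4 and 34.6 CPM in RTF2-deficient line 1, 36.5, 35.4 and 34.0 CPM in WT line 2 and 34.2, 36.9 and 39.3 CPM in RTF2-deficient line 2. All 4 groups overlapped. The genotype difference was 0.05 (SE 0.0489, 95% interval -0.06 to 0.15, edgeR adjusted p = 0.554). Its annotation shares 315 exon bases on the same strand with Gm21970, so reads there could be split between the genes.

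Of the kinases bound to these receptors, Tyk2 changed with genotype and Jak1 did not pass the test. Tyk2 was at 22.6, 23.1 and 21.5 CPM in WT line 1 and 10.7, 9.39 and 9.26 CPM in RTF2-deficient line 1. Line 2 had 29.8, 24.0 and 25.2 CPM in WT and 7.43, 8.47 and 12.1 CPM in RTF2-deficient libraries. Every RTF2-deficient library was below every WT library, and Tyk2 fell by 1.34 on the log2 scale (SE 0.119, 2.54-fold, edgeR adjusted p = 2.92e-05). With the 3 libraries of each group summed to 1 sample the difference was again -1.34, with an edgeR adjusted p of 0.102, and 0 of all genes were called in that fit. The log2 difference was -1.19 in line 1 (edgeR adjusted p = 0.00304, and 1.42e-05 in the paired fit) and -1.49 in line 2 (edgeR adjusted p = 0.000335), and the test of the difference between lines was not passed (-0.30, SE 0.226, edgeR adjusted p = 0.889). The locus shares 554 exon bases with an antisense RNA, 1700084C06Rik. Jak1 lay between 278 and 350 CPM, with a genotype difference of -0.07 (SE 0.0552, edgeR adjusted p = 0.423).

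Stat2 (Entrez 20847, chr10:128270559-128292849, plus strand, 24 exons) encodes the STAT that recruits IRF9, and its promoter held an ISRE core. It was at 48.5, 19.9 and 18.7 CPM in WT line 1 and 29.8, 19.3 and 16.9 CPM in RTF2-deficient line 1. The line 2 levels were 330, 56.5 and 136 CPM in WT and 20.7, 27.5 and 152 CPM in RTF2-deficient libraries. Replicate 1 was the highest in 3 groups and replicate 3 in RTF2-deficient line 2, the same libraries in which the interferon targets were highest, and the genotypes overlapped in both lines. In line 1 the RTF2-deficient library was lower in each of the 3 same-numbered pairs, with a difference of -0.40 (edgeR adjusted p = 0.899) that was -0.33 in the paired fit (edgeR adjusted p = 0.0665). Without WT line 1 replicate 1 the unpaired line 1 difference turned to 0.20 (edgeR adjusted p = 0.969). The genotype difference over both lines was -0.90 on the log2 scale (SE 0.559, 95% interval -2.12 to 0.32, edgeR adjusted p = 0.314), -0.45 without WT line 2 replicate 1 (edgeR adjusted p = 0.604) and -1.42 without RTF2-deficient line 2 replicate 3 (edgeR adjusted p = 0.145). In line 2 it was -1.38 (SE 0.786, edgeR adjusted p = 0.281). Without RTF2-deficient line 2 replicate 3 the line 2 difference was -2.83 and passed the test (edgeR adjusted p = 0.0240), without WT line 2 replicate 1 it was -0.52 (edgeR adjusted p = 0.743), and without both libraries it was -1.99 (edgeR adjusted p = 0.0402).

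Irf9 (Entrez 16391, chr14:55603571-55610030, plus strand, 10 exons) encodes the DNA-binding part of the STAT complex. It was at 66.9, 18.1 and 21.0 CPM in WT line 1 and 33.1, 16.3 and 16.8 CPM in RTF2-deficient line 1. Line 2 showed 148, 58.2 and 99.8 CPM in WT and 19.7, 39.2 and 122 CPM in RTF2-deficient libraries. The high libraries were again replicate 1 in 3 groups and replicate 3 in RTF2-deficient line 2, and the genotypes overlapped in both lines. In line 1 the RTF2-deficient library was lower in each same-numbered pair, and the difference of -0.68 (edgeR adjusted p = 0.767) was -0.55 in the paired fit and passed there (edgeR adjusted p = 0.0236). Without WT line 1 replicate 1 the unpaired difference turned to 0.18 (edgeR adjusted p = 0.962). The genotype difference was -0.72 over both lines (SE 0.459, 95% interval -1.72 to 0.28, edgeR adjusted p = 0.327). Over left-out libraries it ran from -1.15 without RTF2-deficient line 2 replicate 3 (edgeR adjusted p = 0.107) to -0.35 without WT line 1 replicate 1 (edgeR adjusted p = 0.661), and it was -0.55 without WT line 2 replicate 1. In line 2 it was -0.76 (edgeR adjusted p = 0.505). Without WT line 2 replicate 1 the line 2 value was -0.39 (edgeR adjusted p = 0.808), without RTF2-deficient line 2 replicate 3 -1.77 (edgeR adjusted p = 0.0834) and without both -1.41 (edgeR adjusted p = 0.179). Irf9 shares 123 exon bases on the same strand with Rnf31, which varied by 2.47-fold over the libraries, so reads there could be split between the genes.

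Irf7 (Entrez 54123, chr7:141262706-141266481, minus strand, 10 exons), which amplifies interferon production once it is induced, varied most. It was at 13.7, 1.09 and 3.67 CPM in WT line 1 and 3.82, 0.662 and 1.68 CPM in RTF2-deficient line 1. Libraries of line 2 held 672, 25.1 and 104 CPM in WT and 1.90, 6.80 and 138 CPM in RTF2-deficient libraries. The highest library of a group exceeded the lowest by 12.5-fold, 5.77-fold, 26.8-fold and 72.8-fold in these 4 groups, and the genotypes overlapped in both lines. In line 1 the RTF2-deficient library was again the lower of each same-numbered pair, and the difference of -1.58 (edgeR adjusted p = 0.776) was -1.43 in the paired fit and passed there (edgeR adjusted p = 0.00138). Without WT line 1 replicate 1 the unpaired difference shrank to -0.20 (edgeR adjusted p = 0.988). The genotype difference over both lines was -2.07 (SE 1.08, 95% interval -4.43 to 0.29, edgeR adjusted p = 0.231), -0.99 without WT line 2 replicate 1 (edgeR adjusted p = 0.578) and -3.51 without RTF2-deficient line 2 replicate 3 (edgeR adjusted p = 0.109), and in line 2 it was -2.44 (SE 1.49, edgeR adjusted p = 0.315). Without RTF2-deficient line 2 replicate 3 the line 2 difference was -5.92 and passed the test (edgeR adjusted p = 0.0343), without WT line 2 replicate 1 it was -0.39 (edgeR adjusted p = 0.910), and without both it was -3.88 (edgeR adjusted p = 0.0590). Irf7 shares 45 exon bases with Phrf1 on the other strand, and Phrf1 varied by 1.18-fold.

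The libraries high in Irf7 were those high in Stat2 and Irf9. Over the 12 libraries Pearson's r of log2 CPM was 0.977 for Stat2 with Irf7, 0.971 for Irf9 with Irf7 and 0.961 for Stat2 with Irf9. After group means were taken off, so that only sister libraries were compared, r was 0.951, 0.943 and 0.929. Irf3 with Irf7 gave 0.315 and 0.124, and Ifnar1 with Irf7 gave -0.67 and 0.0734. These are descriptions over 12 libraries that share their groups and were drawn from 4 cell sources.

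**Figure D2:**
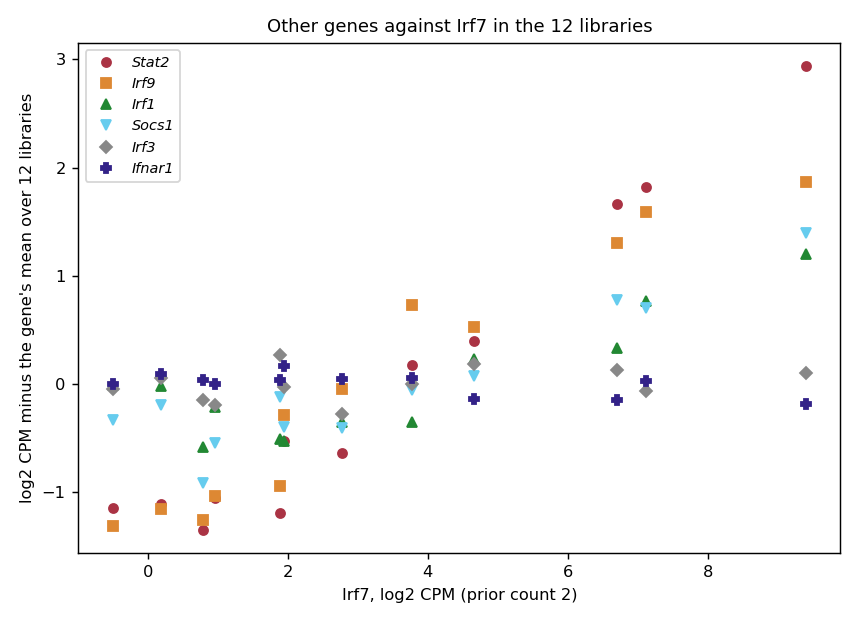
Log2 CPM of other genes, each minus its mean over the 12 libraries, against log2 CPM of Irf7, with 1 point per library. Stat2 and Irf9 climb with Irf7 (r = 0.977 and 0.971), Irf1 and Socs1 climb less steeply at the right of the plot, and Irf3 and Ifnar1 stay near their means.

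Irf1 (Entrez 16362, chr11:53770014-53778374, plus strand, 10 exons), a factor induced by interferon and inflammatory signals, followed the others only in part. It was at 22.9, 28.9 and 20.6 CPM in WT line 1 and 20.3, 29.0 and 19.5 CPM in RTF2-deficient line 1, where replicate 2 and not replicate 1 was the highest in both groups. In line 2 it was at 67.3, 34.2 and 36.8 CPM in WT and 25.2, 22.8 and 49.5 CPM in RTF2-deficient libraries, with the highest values in the libraries that were high in Irf7. The genotype difference was -0.29 over both lines (SE 0.233, 95% interval -0.80 to 0.22, edgeR adjusted p = 0.438), -0.091 without WT line 2 replicate 1 (edgeR adjusted p = 0.805) and -0.44 without RTF2-deficient line 2 replicate 3 (edgeR adjusted p = 0.219). In line 2 it was -0.50 (edgeR adjusted p = 0.350), -0.12 without the former library (edgeR adjusted p = 0.860) and -0.92 without the latter (edgeR adjusted p = 0.0561). Irf1 shares 135 exon bases with Gm17334 on the other strand.

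Irf3 (Entrez 54131, chr7:44997648-45002848, plus strand, 8 exons), the factor that resting cells use to start interferon production, was the 1 member that fell with RTF2 loss over both lines. It was at 32.4, 33.7 and 38.9 CPM in WT line 1 and 31.8, 31.4 and 29.2 CPM in RTF2-deficient line 1. For line 2 the levels were 34.8, 36.9 and 35.5 CPM in WT and 28.2, 26.8 and 30.9 CPM in RTF2-deficient libraries. All 6 RTF2-deficient libraries were below all 6 WT libraries, with 31.8 CPM as the highest of the former and 32.4 CPM as the lowest of the latter, and 4.41% of all genes tested were separated that way. The difference was -0.25 (SE 0.0610, 95% interval -0.38 to -0.12, 1.19-fold lower, edgeR adjusted p = 0.0188).

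The fall of Irf3 was small and near the threshold. It was -0.18 in line 1 (SE 0.0855, edgeR adjusted p = 0.376, and 0.0794 in the paired fit) and -0.32 in line 2 (SE 0.0855, edgeR adjusted p = 0.0331), and the difference between lines was -0.14 (SE 0.121, edgeR adjusted p = 0.941). The call in line 2 was lost when 1 library was left out in 7 of 12 cases, namely replicate 2 of WT line 1, replicate 2 of RTF2-deficient line 1, each WT library of line 2, and replicates 1 and 2 of RTF2-deficient line 2, with edgeR adjusted p from 0.0524 to 0.157. Without RTF2-deficient line 2 replicate 2 the fall over both lines no longer passed (-0.22, edgeR adjusted p = 0.0510), and with the 3 libraries of each group summed to 1 sample it was -0.25 with an edgeR adjusted p of 0.220, a fit in which Rtf2 itself had an adjusted p of 0.102. Without both libraries that stood apart it was -0.26 (edgeR adjusted p = 0.0317). Irf3 shares 88 exon bases with Bcl2l12, which lies on the other strand and was named here after its values were seen, and Bcl2l12 also fell (-0.28, SE 0.0803, edgeR adjusted p = 0.0406). Without a known strand setting, reads of the shared bases cannot be told apart.

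**Figure D3:**
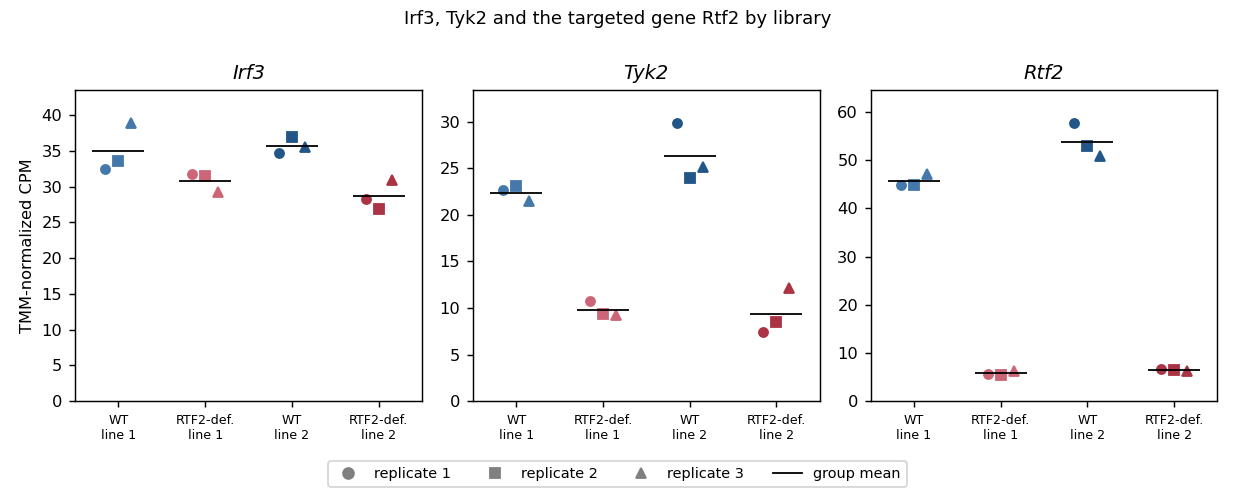
Normalized CPM of Irf3, Tyk2 and the targeted gene Rtf2 in the 12 libraries, on linear axes from 0, with a line at each group mean. The RTF2-deficient libraries lie below the WT libraries for each gene, by 1.19-fold for Irf3, 2.54-fold for Tyk2 and 8.08-fold for Rtf2 in the fit over both lines.

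Socs1 (Entrez 12703, chr16:10782240-10785536, minus strand, 2 exons) encodes an inhibitor of the receptor kinases, and its promoter held overlapping ISRE cores. It was at 2.96, 2.67 and 2.82 CPM in WT line 1 and 2.32, 2.43 and 1.61 CPM in RTF2-deficient line 1. Line 2 had 8.18, 3.24 and 5.29 CPM in WT and 2.09, 2.31 and 5.04 CPM in RTF2-deficient libraries. The genotypes did not overlap in line 1, where 11.3% of all genes tested were lower without overlap, and overlapped in line 2 through RTF2-deficient replicate 3. The line 1 difference was -0.41 (edgeR adjusted p = 0.740), and -0.43 in the paired fit (edgeR adjusted p = 0.0929). The genotype difference was -0.62 over both lines (SE 0.265, 95% interval -1.20 to -0.04, unadjusted p = 0.0369 and adjusted p = 0.147 by edgeR), and it passed when the groups were a random block in limma voom (-0.66, adjusted p = 0.0471). That fit estimated a correlation of -0.15 between libraries of a group and called 24.2% of all genes, against 13.2% in the edgeR fit, while summed triplicates called 0 genes in edgeR. In line 2 it was -0.82 (edgeR adjusted p = 0.181). It was -0.43 without WT line 2 replicate 1 (edgeR adjusted p = 0.521), and it passed without RTF2-deficient line 2 replicate 3 (-1.32, edgeR adjusted p = 0.0270) and without both libraries that stood apart (-0.94, edgeR adjusted p = 0.0477). Usp18, which displaces JAK1 from IFNAR2, ran from 0.539 to 353 CPM with a genotype difference of -1.97 (SE 1.05, edgeR adjusted p = 0.240) that was -3.52 without RTF2-deficient line 2 replicate 3 (edgeR adjusted p = 0.0537), -1.47 without WT line 2 replicate 1 (edgeR adjusted p = 0.453) and -1.10 without WT line 1 replicate 1 (edgeR adjusted p = 0.532).

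Over both lines, 1 of the 8 members that passed the filter changed with genotype, Irf3, against 13.2% of all 14263 genes tested. The median log2 difference of the 8 was -0.46, beside 0.00194 for all genes, and 6 of the 8 were below 0. In line 1 no member was called by edgeR, none had an unadjusted p under 0.05, and DESeq2 and limma voom also called 0, against 3.20% of all genes with edgeR. The paired fit of line 1 called 2 of the 8, Irf7 and Irf9, against 29.1% of all genes in that fit. The RTF2-deficient library was lower in each of the 3 pairs for 5 of the 8, namely Stat2, Irf9, Irf7, Irf3 and Socs1, against 28.4% of all genes. In line 2 edgeR called Irf3 alone, against 12.5% of all genes, DESeq2 called 2 (18.2% of all genes) and limma voom 1 (12.7%). Left-out libraries moved that count between 0 and 4, and the 4 were called without RTF2-deficient line 2 replicate 3, where 16.4% of all genes were called. The genotype effect differed between the lines for 0 members by edgeR, DESeq2 and limma voom, with 0 unadjusted p under 0.05, against 1.29% of all genes. Marker sums of other cell types also differed between genotypes. Those of 10 immune markers were 6.88 to 10.6 CPM in WT and 5.17 to 5.49 CPM in RTF2-deficient libraries of line 2. Within that list Csf1r went the other way, lowest in WT line 2 replicate 1 (0.608 CPM) and highest in RTF2-deficient line 2 replicate 1 (1.83 CPM). In line 1 those of 4 endothelial markers were 10.6 to 14.7 and 17.6 to 21.5 CPM, and those of 5 epithelial markers 2.06 to 2.36 and 2.77 to 4.27 CPM. The part of these sums in the members' differences was not tested. Genotypes were separated without overlap in line 2 for Irf3 (15.5% of all genes lower in this way) and for Ifnar1 (14.0% higher).

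**Figure D4:**
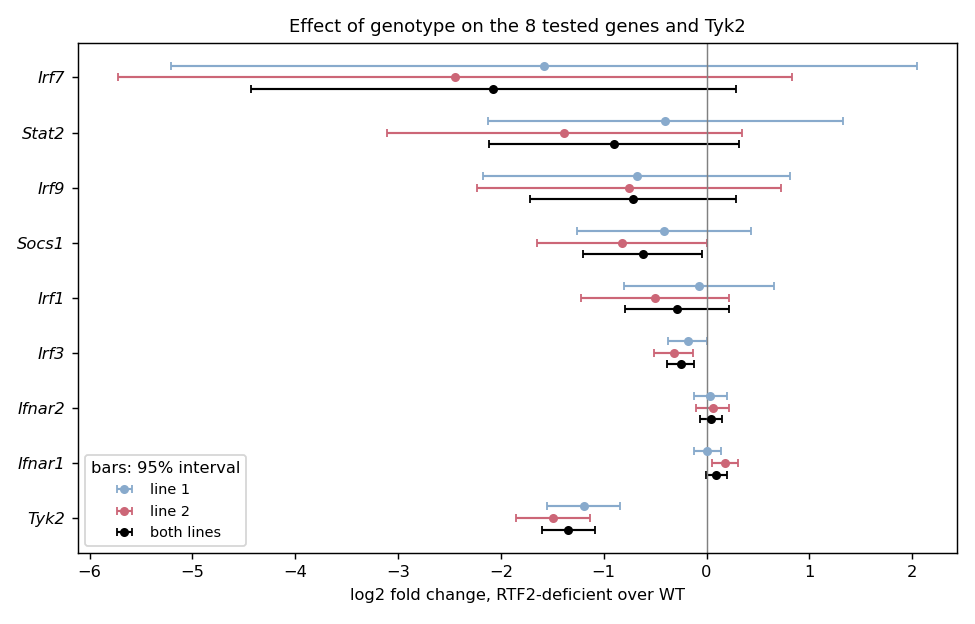
Log2 fold change of RTF2-deficient over WT cells with its 95% interval from edgeR, for the 8 tested members and Tyk2, in line 1, line 2 and both lines together. The intervals of Irf7 and Stat2 over both lines run from -4.43 to 0.29 and from -2.12 to 0.32, while those of Irf3 (-0.38 to -0.12) and Tyk2 (-1.60 to -1.08) lie below 0 and those of the receptor chains are narrow around 0.

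Between WT line 2 and WT line 1 the log2 difference was 5.44 for Irf7 (SE 1.73, 43.4-fold, edgeR adjusted p = 0.0603), 2.58 for Stat2 (SE 0.820, 5.99-fold, edgeR adjusted p = 0.0601), 1.53 for Irf9 (edgeR adjusted p = 0.172), 0.98 for Socs1 (edgeR adjusted p = 0.112) and 0.93 for Irf1 (edgeR adjusted p = 0.0866). Without WT line 2 replicate 1 these became 3.37 for Irf7 (edgeR adjusted p = 0.213), 1.71 for Stat2 (0.221), 1.14 for Irf9 (0.399), 0.58 for Socs1 (0.382) and 0.54 for Irf1 (0.325). Marker sums of other cell types differed in this contrast. The summed level of 10 immune markers was 2.77 to 4.13 CPM in WT line 1 and 6.88 to 10.6 CPM in WT line 2, highest in replicate 1. That of 5 epithelial markers was 2.06 to 2.36 CPM in WT line 1 and 6.85 to 9.64 CPM in WT line 2. The immune markers did not move alike. Cd68 had its highest level in WT line 2 replicate 1 (8.94 CPM), where Csf1r had its lowest (0.608 CPM). The part of these sums in the members' differences was not tested. In the paired fit of the WT lines all 5 members named passed, with 5.09 for Irf7 (edgeR adjusted p = 9.59e-05), 2.38 for Stat2 (0.00198), 1.67 for Irf9 (0.00252), 0.89 for Socs1 (0.0483) and 0.87 for Irf1 (0.0446), Ifnar1 did not (-0.23, edgeR adjusted p = 0.0741), and 17.6% of all genes were called. In the unpaired fit only Ifnar1 was called by edgeR (-0.22, SE 0.0586, adjusted p = 0.0311), against 14.0% of all genes, although 6 of the 8 had an unadjusted p under 0.05 and DESeq2 called 4 (19.3% of all genes). Left-out libraries moved the edgeR count between 0 and 4. Ifnar1 was not called without WT line 1 replicate 1 (edgeR adjusted p = 0.0628), WT line 1 replicate 2 (0.0798), WT line 2 replicate 1 (0.0700) or WT line 2 replicate 3 (0.0651). The 4 calls came when WT line 2 replicate 2 was left out, and again when replicate 3 of RTF2-deficient line 2 was, and 3 calls came when replicate 1 of RTF2-deficient line 2 was. These fits called 15.2%, 15.4% and 13.1% of all genes. In them Stat2 had an edgeR adjusted p of 0.0339, 0.0165 and 0.0479, and Irf7 of 0.0414, 0.0195 and 0.0433.

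Between the RTF2-deficient lines edgeR called 0 members, against 1.94% of all genes, with 1 unadjusted p under 0.05, Irf7 at 4.57 (SE 1.73, 23.8-fold, adjusted p = 0.263). DESeq2 called 1, with 4.92% of all genes, and limma voom 0. Without RTF2-deficient line 2 replicate 3 the Irf7 difference was 1.06 (edgeR adjusted p = 0.783) and that of Stat2 dropped from 1.60 to 0.12, that of Irf9 from 1.45 to 0.40, that of Irf1 from 0.50 to 0.059 and that of Socs1 from 0.57 to 0.047. Between these lines too the marker sums did not overlap, with 3.14 to 3.77 CPM in line 1 and 5.17 to 5.49 CPM in line 2 for the immune markers and 2.77 to 4.27 and 9.11 to 13.1 CPM for the epithelial markers. Krt18 alone of the epithelial markers had a mean above 1 CPM (4.97 CPM over all libraries). Cdh1 had its lowest level, 0.180 CPM, in RTF2-deficient line 2 replicate 2, against the direction of the sum. Each line contrast compares 1 set of cells with 1 other.

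Other genes of the pathway were taken from fixed lists, by role, and their counts stand beside 13.2% of all genes called over both lines and 12.5% in line 2. Of 8 further receptor and kinase genes, Tyk2 fell over both lines and 7 did not pass the edgeR test, and in line 2 Ifngr2, a chain of the interferon gamma receptor, rose (0.51, SE 0.0913, edgeR adjusted p = 0.00509). WT line 2 was the group that stood apart, at 72.1 to 83.7 CPM against 105 to 135 CPM in the other 3 groups, and Ifngr2 was lower there than in WT line 1 (-0.65, edgeR adjusted p = 0.000839), as was Il10rb (-0.28, edgeR adjusted p = 0.0197). Over both lines Ifngr2 was at 0.26 (edgeR adjusted p = 0.101) and passed without WT line 1 replicate 3 (0.31, edgeR adjusted p = 0.0496). Ifngr1 and Il10rb gave -0.01 and 0.03 over both lines. For Il10rb this averaged opposite values, -0.12 in line 1 (edgeR adjusted p = 0.492) and 0.19 in line 2 (edgeR adjusted p = 0.104). Its difference between lines was 0.31 and did not pass (edgeR adjusted p = 0.243). Of 6 further STAT genes, Stat6 fell (-0.20, SE 0.0596, edgeR adjusted p = 0.0452) and 5 did not pass, while in line 2 Stat5a fell (-0.63, SE 0.157, edgeR adjusted p = 0.0245). Of 6 further IRF-family genes tested, 0 passed with edgeR. Of 16 further negative regulators, Pias4, which encodes a SUMO ligase that restrains STATs, rose (0.19, SE 0.0494, edgeR adjusted p = 0.0238) and 15 did not pass. Of 10 activators upstream of Ifnb1, 0 passed over both lines with edgeR, and Ikbke, an IRF3 kinase, fell in line 2 (-1.06, SE 0.254, edgeR adjusted p = 0.0195). Stat6, Stat5a, Pias4 and Ikbke were named after their values were seen. No values without the 2 libraries that stood apart are given for them. Ikbke ran from 5.21 to 18.6 CPM and was highest in WT line 2 replicate 1, 1 of those libraries.

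The 23 interferon-stimulated targets gave a median genotype difference of -1.68 over both lines, and edgeR called 0 of them. The median was -0.73 with 0 called without WT line 2 replicate 1, -2.85 with 6 called lower without RTF2-deficient line 2 replicate 3, where 13.7% of all genes were called, and -2.08 with 9 called lower without both, where 13.4% of all genes were called. In line 2 the median was -1.90 with 0 called, -0.35 with 0 called without WT line 2 replicate 1, and -4.82 with 20 called lower without RTF2-deficient line 2 replicate 3, against 16.4% of all genes. The left-out libraries were picked by the levels of these same targets, and dropping a high RTF2-deficient library lowers its group. Calls gained in this way are no independent test of genotype. Mx1, an antiviral GTPase, was at -2.31 (SE 1.11, edgeR adjusted p = 0.195), and Isg15, a ubiquitin-like modifier, at -1.42 (SE 0.808, edgeR adjusted p = 0.272). Between the WT lines 15 of the 23 were higher in line 2, with a median of 5.07, Rsad2 at 6.72 (edgeR adjusted p = 0.0229) and Ifit1 at 4.74 (edgeR adjusted p = 0.0354) among them, against 14.0% of all genes called in either direction. Without WT line 2 replicate 1 the median was 3.48 and 3 were called, against 9.76% of all genes, and without RTF2-deficient line 2 replicate 3 it was 5.05 and 23 were called, against 15.4%. Between the RTF2-deficient lines the median was 4.17 and edgeR called 0, and without RTF2-deficient line 2 replicate 3 it was 1.63. These targets moved with Irf7, Stat2 and Irf9 between sister libraries, and their part in the members' differences was not tested.

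Per kilobase of the longest annotated transcript, the order of mean levels differed between the WT lines. In WT line 1 Ifnar1 was highest at 26.3 CPM per kb, followed by Irf3 at 17.2, Irf9 at 11.9, Irf1 at 11.3, Ifnar2 at 11.1, Stat2 at 6.61, Irf7 at 2.74 and Socs1 at 0.969. Ifnar1 was above every other member there. Irf3, Irf1, Ifnar2 and Stat2 each overlapped with Irf9, and Irf7 overlapped with Stat2 and Socs1, so these neighbours did not separate. In WT line 2 Irf7 had the highest mean, 119 CPM per kb with libraries from 11.2 to 300.6, followed by Stat2 at 39.6 and Irf9 at 34.4, which overlapped with it. Ifnar1 at 22.6, Irf1 at 21.6, Irf3 at 17.6, Ifnar2 at 11.6 and Socs1 at 1.92 came after, and of these Socs1 alone lay below every Irf7 library.

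By the fixed rule, the genes among the 3 whose log2 CPM over the 12 libraries was most like each member's are given with Pearson's r. For Stat2 they included Gbp2 (0.996) and Parp10 (0.995), for Irf9 they were Xaf1 (0.992), Bst2 (0.992) and Ifitm3 (0.988), and for Irf7 Ifitm3 (0.993), Phf11d (0.991) and Gbp3 (0.991). For Socs1 they were Oas2 (0.974), Tmem140 (0.972) and Tdrd7 (0.969). For Irf1 they were Nampt (0.966), Mov10 (0.962) and Bbs7 (0.956). For Irf3 they were Tsr3 (0.946), Fam98c (0.944) and Hdgfl2 (0.940), for Ifnar1 Htra1 (0.959), Rasl11b (0.944) and Casd1 (0.944), and for Ifnar2 2610044O15Rik8 (0.883), Slc2a9 (0.883) and Trmt10b (0.864).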

How the data were processed

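RNA from the 12 MEF libraries was read as 75 base single reads. The deposited table holds the authors' raw counts, 1 column per library and 1 row per Entrez number, with no normalization. Salmon and tximport with mm10 gene models appear in the study's methods, but HTSeq and mm10 in the processing notes of the submitters, so the counting tool is not settled. A strand setting is not given in the sources used here, which bears on genes that overlap others. RefSeq's annotation of GRCm38.p6 gave symbols for 24045 of 24100 identifiers, and GENCODE M21 gave gene models.

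After filterByExpr by group, which kept 14263 genes, TMM factors were set and edgeR 4.0.16 (glmQLFit, glmQLFTest, in R 4.3.3) was fitted with terms for line and genotype, or contrasts in a layout of the 4 groups. Benjamini-Hochberg adjustment ran over all genes tested, and calls needed an adjusted p under 0.05. CPM values are TMM-normalized, and log2 CPM has a prior count of 2. The limit for a count of 0 covers counting error only. Scripts were tested on simulated data. As alternatives, RLE or upper-quartile factors, other filters, DESeq2 1.42.0, limma 3.58.1 voom, other designs and left-out libraries were tried. Deviations of same-numbered libraries from their group means correlated over 0.1 in all 9 pairs among WT line 1, RTF2-deficient line 1 and WT line 2, so for these the replicate number was also fitted as a block on the 6 libraries compared (edgeR), and in 2 of 9 pairs with RTF2-deficient line 2. No library pair of a group agreed within sampling noise (chi-square per degree of freedom of at least 20.9).

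The members and the gene lists were chosen with earlier results of these data known. Named were the 9 members, Rtf2, direct partners (Jak1, Tyk2, Usp18, Ifngr1, Ifngr2, Il10rb), listed pathway genes past the test with a log2 fold change beyond 1, and the 3 most alike genes per member. Other listed genes are named as examples. Protein sequences were not used here, and 2 listed genes are not reported here.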

Additional observations from a re-analysis of the deposited data

Results flagged for a closer look

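Within each genotype, the 6 libraries of each member were checked for a highest or lowest value far from the rest by Dixon's 95% limit. Of 18 sets examined 9 passed it. The sets are not independent, since the same 2 libraries lead 8 of the 9 and each set holds 2 lines. Dixon's limit assumes roughly normal values and was applied to CPM, not to log2 CPM. Its chance rate of about 5% of sets therefore does not hold here, and the 9 sets are a description. WT line 2 replicate 1 was far above the other WT libraries for Ifnb1 (1.5 CPM, nearest 0.142), Irf7 (672 CPM, nearest 104) and Irf1 (67.3 CPM, nearest 36.8). RTF2-deficient line 2 replicate 3 was far above the other RTF2-deficient libraries for Stat2 (152 CPM, nearest 29.8), Irf9 (122 CPM, nearest 39.2), Irf7 (138 CPM, nearest 6.80), Irf1 (49.5 CPM, nearest 29.0) and Socs1 (5.04 CPM, nearest 2.43). Ifnar1 was highest in RTF2-deficient line 1 replicate 1 (110 CPM, nearest 102).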

How the results depend on the processing

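Counts of members called are given with the main count first. Over both lines 1 became 2 with the groups as a random block in limma voom (Socs1 added, with 3457 of all genes called in place of 1878) and 0 with summed triplicates, where 0 genes were called, and ranged from 0 to 1 over left-out libraries. In line 2 the count of 1 (12.5% of all genes) became 0 with no filter (7.88%) and with only the 6 libraries of that line (6.93%), 2 with a filter of 1 CPM in 3 libraries (14.1%), 2 with DESeq2 (18.2%) and, in an alternative chosen after seeing the data, 3 without the 2 libraries that stood apart (13.5%), and ranged from 0 to 4 over left-out libraries. In line 1 the count of 0 became 2 in the paired fit, chosen after seeing the data (3985 of all genes in place of 456). Between the WT lines 1 became 4 with DESeq2 (2748 genes in place of 1998) and 5 in the paired fit (2442 genes) and ranged from 0 to 4. Between the RTF2-deficient lines 0 became 1 with DESeq2 (702 genes in place of 276). The cause was not tested. Of the 24 genes most like the members, 3 were also named by deviations from group means and 4 by Spearman's rho. On the given strand 1 and not 2 members held an ISRE core.

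Small differences changed sign over left-out libraries. In line 1 the range was -0.68 to 0.20 for Stat2, -1.09 to 0.18 for Irf9, -0.28 to 0.070 for Irf1 and -0.043 to 0.036 for Ifnar1. For the difference between lines it was -0.024 to 0.082 for Ifnar2, -1.10 to 0.35 for Irf9 and -4.35 to 1.18 for Irf7. Between the WT lines it was -0.036 to 0.10 for Irf3, and over both lines -0.054 to 0.016 for Ifngr1, which with no filter was 0.00144. Without the 2 libraries that stood apart Il10rb was -0.020.

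Replicate numbers paired the libraries of WT line 1, RTF2-deficient line 1 and WT line 2, where every same-numbered pair correlated over 0.1, and not those of RTF2-deficient line 2 as labelled. With the replicate block over all 12 libraries, which uses the labels' numbers there too, Ifnar1 between the WT lines was -0.22 (edgeR adjusted p = 0.0560) and Irf7 5.18 (edgeR adjusted p = 0.0379), and no other member's call changed. Technical replicates of 1 embryo's cells limit what each contrast covers.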
